A study of Mus musculus with 8 samples.

Results

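The enzymes that place methyl groups on lysine 9 of histone H3 (H3K9) and on DNA, and those that oxidize methylated DNA, were followed in the hippocampus of male mice exposed to benzo[*a*]pyrene (BaP). They are 10 genes given by name: the H3K9 methyltransferases *Ehmt1*, *Ehmt2*, *Setdb1*, *Suv39h1* and *Suv39h2*, the DNA methyltransferases *Dnmt1* and *Dnmt3a*, and the TET dioxygenases *Tet1*, *Tet2* and *Tet3*. All 10 had a probe, and together they had 16 of the 55681 probes on the array, which covered 20656 named genes.

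BaP is a polycyclic aromatic hydrocarbon of combustion smoke and charred food. Adult males of Muta Mouse, a transgenic strain that carries a bacterial *lacZ* reporter for scoring mutations, were gavaged with BaP in olive oil on 3 days, at 70 mg/kg bw each day. Controls were given the vehicle, and tissue of both groups was taken 24 hr after the last dose. All were 9 weeks of age. Arrays of 4 mice in each group were compared. RNA of each mouse was labeled with Cy5 and hybridized with a universal mouse reference RNA in Cy3, so each value here is a log2 ratio of hippocampus over that reference, with no dye swap.

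The labels conflict for 4 arrays, those of BaP and control mice 3 and 4, whose source name gives the other group than their title. Groups here follow the titles. Over the whole array 3 probes were called by title and 0 by source name. All 8 arrays were on 1 slide, in 2 rows that held 2 control and 2 BaP mice each, and the arrays with conflicting labels made up the second row. The median Cy5 signal of an array was 108 to 174 over a background of 67 to 71, and 56.6% to 67.4% of its spots were well above background. Hippocampal neuron markers were high against the reference in every mouse, with a list mean of 3.73 to 3.85 in control and 3.75 to 4.04 in BaP mice. The number of arrays limits precision, and an exact permutation test of 4 against 4 mice cannot go below a p of 0.0286.

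Methylated H3K9 is a mark of silent chromatin. *Ehmt1* (GLP) and *Ehmt2* (G9a) work as a pair and place the lower methylation states in euchromatin, *Setdb1* silences endogenous retroviruses, and *Suv39h1* and *Suv39h2* trimethylate H3K9 in the heterochromatin around centromeres. *Dnmt1* copies CpG methylation onto the new strand at replication, while *Dnmt3a*, abundant in neurons, methylates DNA de novo. The TET enzymes oxidize 5-methylcytosine to 5-hydroxymethylcytosine, a base that is abundant in the brain. BaP itself binds the aryl hydrocarbon receptor (AHR), which acts at DNA elements with the core GCGTG.

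Promoter windows of the members were taken from RefSeq (mouse assembly GRCm38.p6), each with 250 bases before and 50 after an annotated transcript start. Those of *Ehmt1*, *Ehmt2*, *Suv39h1* and *Tet1* are printed 5′ to 3′ on the gene's strand, since *Ehmt2* and *Tet1* had the lowest unadjusted p among the members, *Suv39h1* the largest fold change and *Ehmt1* is the partner of *Ehmt2*. Capitals mark the AHR core, GCGTG or, on the other strand, CACGC.
Ehmt1, chr2:24919560-24919859, minus strand: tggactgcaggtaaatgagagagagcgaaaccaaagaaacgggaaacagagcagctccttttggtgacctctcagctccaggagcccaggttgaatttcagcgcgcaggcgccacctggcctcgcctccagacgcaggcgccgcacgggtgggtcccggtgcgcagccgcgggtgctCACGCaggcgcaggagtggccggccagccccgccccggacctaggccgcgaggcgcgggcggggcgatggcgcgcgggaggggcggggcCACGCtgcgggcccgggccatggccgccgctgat
Ehmt2, chr17:34898720-34899019, plus strand: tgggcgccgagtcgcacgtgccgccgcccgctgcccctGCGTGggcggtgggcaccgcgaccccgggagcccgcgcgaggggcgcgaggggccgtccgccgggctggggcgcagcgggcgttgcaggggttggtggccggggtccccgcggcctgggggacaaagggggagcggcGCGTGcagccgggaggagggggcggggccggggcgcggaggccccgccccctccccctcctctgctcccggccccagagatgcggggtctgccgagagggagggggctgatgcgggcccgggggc
Suv39h1, chrX:8074312-8074611, minus strand: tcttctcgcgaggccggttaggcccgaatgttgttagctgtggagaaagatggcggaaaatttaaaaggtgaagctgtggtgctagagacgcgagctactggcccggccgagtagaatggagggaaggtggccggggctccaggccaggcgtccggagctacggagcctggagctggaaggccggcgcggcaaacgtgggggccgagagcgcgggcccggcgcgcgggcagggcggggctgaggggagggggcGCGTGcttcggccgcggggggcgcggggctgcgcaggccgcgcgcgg
Tet1, chr10:62887275-62887574, minus strand: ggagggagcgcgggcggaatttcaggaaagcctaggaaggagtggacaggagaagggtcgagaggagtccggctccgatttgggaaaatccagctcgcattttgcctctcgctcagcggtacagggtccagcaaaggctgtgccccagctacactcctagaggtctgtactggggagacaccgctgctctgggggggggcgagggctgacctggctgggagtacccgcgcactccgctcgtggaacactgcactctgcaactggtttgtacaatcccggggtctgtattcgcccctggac
The core occurred 2 times in the window of *Ehmt1*, 2 times in that of *Ehmt2* and 1 time in that of *Suv39h1*, and was not in the *Tet1* window. *Ehmt2* and *Suv39h1* each had another annotated start whose window lacked it. Among 16 windows of all 10 members, 6 held the core on either strand, where 32.4% of all 32851 windows did. The longer form TNGCGTG was in 0 of the 16 and in 5.07% of all windows. These matches are descriptions of letters and not of binding. The windows held a median of 30.5 CpG (range 2 to 57), against a median of 7 over all windows.

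Of the 16 probes, 14 were well above background on all 8 arrays and were tested. No spot of theirs was saturated in Cy5 or marked as an outlier in either channel. Saturation in Cy3 was not examined. A second *Suv39h2* probe was not well above background on any array, and the dimmest *Tet3* probe was so on 3 of 8 (2 control and 1 BaP), so neither was tested. For each gene the probe with the highest signal is given as the brightest, and *Ehmt1*, *Tet1*, *Tet2* and *Tet3* each had a second tested probe.

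None of the enzymes changed past the threshold. Calls needed an adjusted p of 0.05 or less (limma, Benjamini-Hochberg over 32598 tested probes) and at least a 1.5-fold change. Of 14 member probes 0 met this, where 0.00920% of all probes (3) did. The adjusted p of the members ran from 0.50 to 0.965. By a gene-wise F test 0 passed as well, and at an unadjusted p of 0.05 limma gave 2, a lower *Ehmt2* and a higher second probe of *Tet1*. That is 14.3% of the members against 8.77% of all probes, of which 4.53% were higher and 4.23% lower. At their brightest probes 7 enzymes had lower and 3 higher means in BaP mice, and their median log2 fold change was -0.07, where that of all tested probes was -0.0044. Over all 14 member probes 8 were lower and 6 higher, with a median of -0.03. With median centring in place of loess the median of all probes itself moved to 0.17, and 9 of the 10 enzymes then had positive values, with *Suv39h1* the exception at -0.12. Against that shifted median 7 enzymes were higher and 3 lower, where with loess 3 were above the median of all probes, so the common direction of the members depends on the normalization and the choice of probe. The move differed between probes, from 0.02 to 0.17 for *Tet3* and from -0.06 to 0.22 for *Suv39h2*. A value set against the shifted median is therefore not fully corrected for the move.

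**Figure D1:**
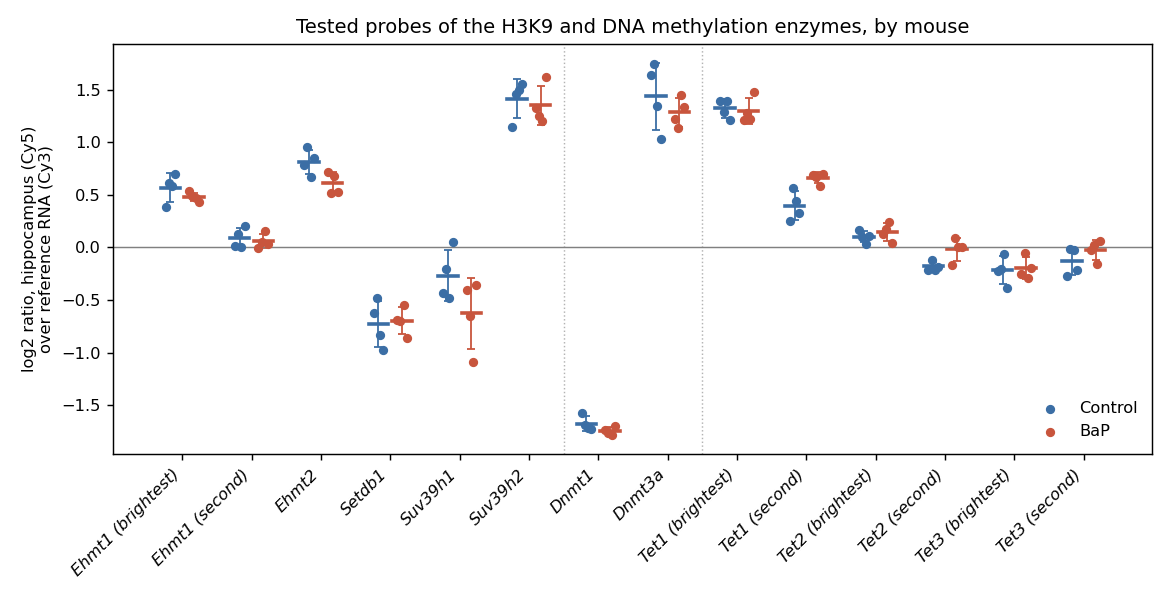
Log2 ratio of hippocampus over reference RNA (vertical axis) at each of the 14 tested probes (horizontal axis) in 4 control and 4 BaP mice. Points are mice, thick bars the group means and thin bars the SD, and dotted lines part the H3K9 methyltransferases, the DNA methyltransferases and the TET enzymes. Only at the second *Tet1* probe did every BaP mouse lie above every control mouse.

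*Ehmt2*, the catalytic partner of *Ehmt1*, had the lowest unadjusted p among the H3K9 methyltransferases. Its log2 ratio was 0.78, 0.95, 0.67 and 0.85 in control mice 1 to 4 and 0.72, 0.51, 0.68 and 0.53 in BaP mice 1 to 4. BaP mice 2 and 4 were below every control mouse, while BaP mice 1 and 3 fell within the control range, so the groups overlapped. The log2 fold change was -0.20 (SE 0.09, 95% interval -0.40 to -0.00, adjusted p = 0.569 from limma), and the exact permutation p was 0.0857 (2-sided). The sign held in both slide rows, at -0.25 in row 1 and -0.16 in row 2, and with each mouse left out in turn (-0.25 to -0.16). It turned to 0.07 with median centring, which is -0.09 against the shifted median of all probes, and was -0.05 with groups taken from the source names.

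*Ehmt1* had log2 ratios of 0.38, 0.62, 0.58 and 0.70 in control mice and of 0.53, 0.49, 0.47 and 0.43 in BaP mice at its brightest probe. The BaP mice lay close together inside the control range. This gave a log2 fold change of -0.09 (SE 0.09, 95% interval -0.28 to 0.10, adjusted p = 0.774 from limma). It was -0.15 without control replicate 1 and -0.05 without control replicate 4, the ends of the range with each mouse left out. Its second probe gave -0.03 (SE 0.08, adjusted p = 0.941 from limma), also with overlapping groups. Within row 1 the brightest probe gave 0.01 and within row 2 -0.19, and with median centring it was 0.02 above the shifted median.

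*Suv39h1*, on the X chromosome, had the largest fold change and the widest interval of the members. Control mice had log2 ratios of -0.44, -0.20, -0.48 and 0.05, and BaP mice -0.40, -0.66, -1.09 and -0.36. BaP mouse 3 was the lowest of the 8 and control mouse 4 the highest, and the other 6 mice overlapped. The log2 fold change of -0.36 (SE 0.17, 95% interval -0.74 to 0.03, adjusted p = 0.586 from limma) was of the size of the SD among BaP mice, 0.33 (n = 4), and the exact permutation p was 0.171. It lay just below the middle 95% of the values of all tested probes, -0.34 to 0.36. Without BaP replicate 3 it was -0.21. The lower bound is a 1.68-fold decrease, and this was the single member interval that reached past 1.5-fold.

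*Suv39h2*, which encodes a second enzyme of the same heterochromatin mark, had log2 ratios of 1.14, 1.46, 1.5 and 1.56 in control and 1.32, 1.25, 1.20 and 1.62 in BaP mice. Both the highest of the control and the highest of the BaP mice carried number 4, and the groups overlapped over most of their range. Its log2 fold change was -0.06 (SE 0.12, 95% interval -0.33 to 0.21, adjusted p = 0.90 from limma), and -0.15 (without BaP replicate 4) to -0.01 (without BaP replicate 3) with each mouse left out in turn. With the Cy5 channel alone it was -0.20. For *Setdb1* the control mice had log2 ratios of -0.62, -0.48, -0.83 and -0.97 and the BaP mice -0.69, -0.70, -0.55 and -0.86. All BaP mice lay inside the control range, and the log2 fold change was 0.03 (SE 0.12, 95% interval -0.23 to 0.29, adjusted p = 0.961 from limma). The slide rows gave *Setdb1* opposite signs, -0.14 and 0.20.

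The maintenance enzyme *Dnmt1* varied less than the other members. Its log2 ratios were -1.57, -1.69, -1.71 and -1.73 in control mice and -1.74, -1.77, -1.79 and -1.70 in BaP mice. Control mouse 1 was the highest, and BaP mouse 4 lay among the other control mice. BaP over control, its log2 fold change was -0.07 (SE 0.07, 95% interval -0.24 to 0.09, adjusted p = 0.787 from limma). With loess normalization the interval bounds a decrease at 1.18-fold and an increase at 1.07-fold. The log2 fold change was -0.04 without control replicate 1, and 0.19 with median centring, which is 0.03 against the shifted median of all probes. Proliferating cells use *Dnmt1*, and of 9 tested proliferation markers 8 had lower means in BaP mice, 0 of them past the adjusted threshold, where 48.8% of all tested probes were higher. *Birc5*, which acts in cell division, was the one without overlap, at -0.42 (SE 0.10, adjusted p = 0.464 from limma). *Mcm6*, a replication helicase subunit named after its value was seen, was the exception at 0.53 (SE 0.18, adjusted p = 0.50 from limma), with overlapping groups, the largest change of that list. The list mean was -4.43 to -4.27 in control and -4.51 to -4.34 in BaP mice, a difference of -0.08. With median centring the difference turned to 0.19, where the median of all tested probes was 0.17. The part of proliferating cells in the *Dnmt1* value was not tested.

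*Dnmt3a* had log2 ratios of 1.64, 1.74, 1.34 and 1.03 in control mice and of 1.22, 1.13, 1.45 and 1.33 in BaP mice. The control mice spanned the whole BaP range, with mice 1 and 2 above all BaP mice and mouse 4 below them. On average the log2 fold change was -0.15 (SE 0.15, 95% interval -0.49 to 0.18, adjusted p = 0.779 from limma). Slide rows split this value, with -0.51 in row 1 and 0.21 in row 2. Row 1 holds exactly the mice whose labels do not conflict, so row and label cannot be told apart. With each mouse left out in turn the log2 fold change ran from -0.29 (without control replicate 4) to -0.05 (without control replicate 2).

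*Tet1* was measured by a pair of probes whose values were unlike. At the second probe the log2 ratios were 0.25, 0.57, 0.44 and 0.33 in control and 0.69, 0.67, 0.59 and 0.70 in BaP mice. All BaP mice were above all control mice, though BaP mouse 3 was only just above control mouse 2. This was the single member probe of 14 (7.14%) without overlap of the groups, where 5.06% of all tested probes had none, 2.52% on the higher and 2.55% on the lower side. The log2 fold change was 0.27 (SE 0.09, 95% interval 0.07 to 0.46, adjusted p = 0.50 from limma), with an exact permutation p of 0.0286. It was 0.27 in row 1, 0.26 in row 2 and 0.23 with the Cy5 channel alone, but 0.00 with groups taken from the source names.

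At the brightest *Tet1* probe the groups were mixed. Control mice had log2 ratios of 1.40, 1.28, 1.39 and 1.21 there, and BaP mice 1.21, 1.28, 1.22 and 1.48. BaP mouse 4 was the highest of the 8 and BaP mouse 1 was level with the lowest control mouse. Here the log2 fold change was -0.02 (SE 0.09, 95% interval -0.22 to 0.18, adjusted p = 0.960 from limma). The difference between the probes, second minus brightest, was higher in BaP mice by 0.29, and the groups overlapped (exact permutation p = 0.0571, 2-sided). This comparison of probes was added after the values were seen. Over the 4 genes with such a pair it was 0.06 for *Ehmt1*, 0.12 for *Tet2* and 0.09 for *Tet3*, with exact permutation p of 0.343, 0.229 and 0.257.

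*Tet2*, which lacks the CXXC domain by which *Tet1* and *Tet3* bind CpG DNA, had log2 ratios of 0.17, 0.10, 0.04 and 0.10 in control and 0.13, 0.18, 0.24 and 0.04 in BaP mice at its brightest probe. The groups overlapped, with a log2 fold change of 0.04 (SE 0.08, 95% interval -0.13 to 0.22, adjusted p = 0.886 from limma). At its second probe control mice had -0.21, -0.12, -0.21 and -0.18 and BaP mice -0.17, 0.09, 0.00 and 0.00. There BaP mice 2, 3 and 4 were above every control mouse and BaP mouse 1 was not. The log2 fold change was 0.16 (SE 0.08, adjusted p = 0.592 from limma), with an exact permutation p of 0.0571, and turned to -0.04 with groups taken from the source names.

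*Tet3* had log2 ratios of -0.22, -0.21, -0.06 and -0.38 in control and -0.25, -0.05, -0.29 and -0.19 in BaP mice at its brightest probe. Both groups covered nearly the same range. A log2 fold change of 0.02 resulted (SE 0.09, 95% interval -0.19 to 0.23, adjusted p = 0.965 from limma). The second probe gave 0.11 (SE 0.09, adjusted p = 0.742 from limma), again with overlap, and 0.22 with the Cy5 channel alone (adjusted p = 0.624 from limma). Both probes were among the dimmer of the members, with median Cy5 signals of 223 and 155 over a background near 70.

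**Figure D2:**
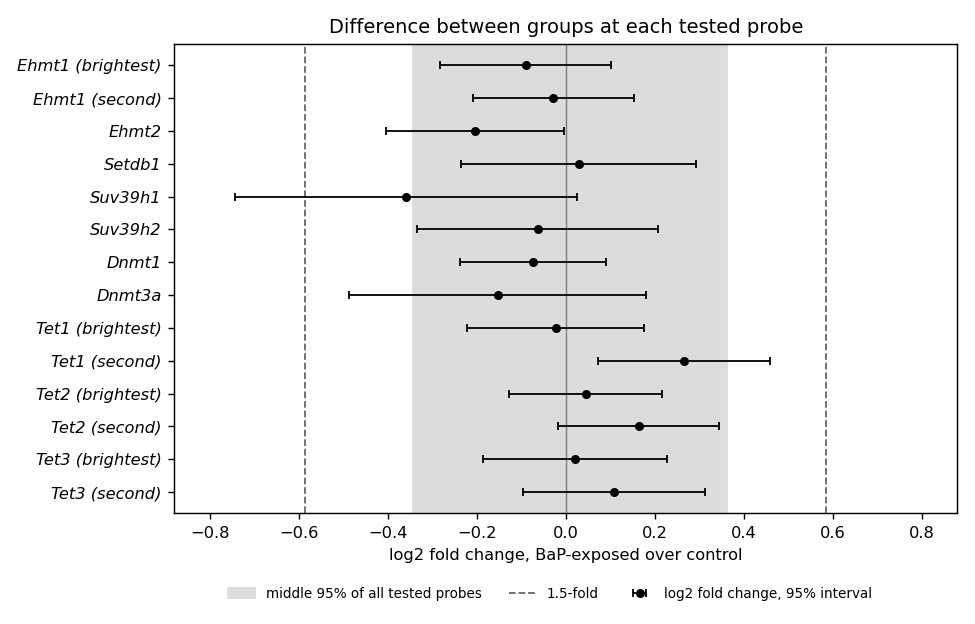
Log2 fold change of BaP over control mice (horizontal axis) with its 95% interval from limma at each of the 14 tested probes (vertical axis), with 4 mice in each group. The gray band is the middle 95% of the values of all tested probes (-0.34 to 0.36) and the dashed lines mark 1.5-fold, which only the interval of *Suv39h1* crosses.

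At 13 of the 14 probes (92.9%) the 95% interval lay within 1.5-fold in both directions, and 88.8% of all tested probes met the same condition, so such a bound is not particular to these enzymes. The SD within groups of the members had a median of 0.11 (range 0.06 to 0.29), against a median of 0.15 over all tested probes. These intervals are not adjusted for the number of probes, so they do not give the smallest change that could be called.

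Fold changes of the brightest probes were also compared over the alternatives of processing, test and mice. Leaving median centring and the source names aside, 16 alternatives could change a fold change. *Ehmt2*, *Suv39h1*, *Suv39h2*, *Dnmt1* and *Tet2* had 1 sign in all 16, and *Ehmt1*, *Setdb1*, *Dnmt3a*, *Tet1* and *Tet3* changed it in at least 1. *Suv39h1* ranged from -0.51 to -0.21 and *Ehmt2* from -0.25 to -0.13 over these. With 1 mouse left out at a time, *Setdb1* ran from -0.05 to 0.11, *Tet1* from -0.08 to 0.01, *Tet2* from 0.01 to 0.08 and *Tet3* from -0.03 to 0.07. With the groups of 4 mice taken from the source names, 5 of the 10 members changed sign, *Suv39h1* to 0.15, *Ehmt1* to 0.10, *Setdb1* to -0.17, *Suv39h2* to 0.05 and *Tet2* to -0.03. *Ehmt2* was -0.05 and *Dnmt3a* -0.36 there.

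**Figure D3:**
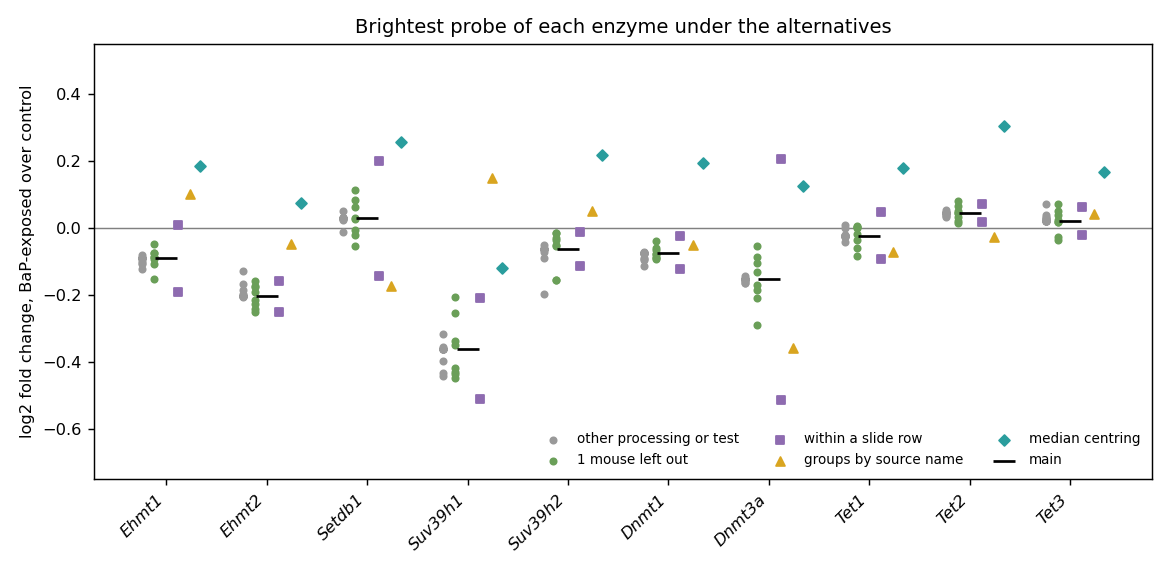
Log2 fold change of BaP over control mice (vertical axis) at the brightest probe of each of the 10 genes (horizontal axis), under the main settings (black bars) and the alternatives (colors). Squares are the values within 1 slide row, which fall on opposite sides of 0 for *Ehmt1*, *Setdb1*, *Dnmt3a*, *Tet1* and *Tet3*. Diamonds are the values with median centring, where the median of all tested probes is 0.17.

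Against the reference RNA, a pool that is the same on every array, 6 of the 10 enzymes had a mean log2 ratio above 0 over the 8 mice at their brightest probes. With median centring this held for 3 of 10, since the zero of the ratio is set by the normalization, and dye and tissue cannot be told apart without a dye swap. *Suv39h2* was at 1.38 ± 0.18 (SD, n = 8), *Dnmt3a* at 1.36 ± 0.24 (SD, n = 8) and *Tet1* at 1.31 ± 0.10 (SD, n = 8). These are 2.60-, 2.57- and 2.48-fold over the reference, and they are the 3 that were also above 0 with median centring, at 0.88, 0.76 and 1.05. By their second tested probes *Tet1* was at 0.53, *Ehmt1* at 0.07, *Tet2* at -0.10 and *Tet3* at -0.08. The probes too dim in Cy5 to be tested were at -0.47 for *Suv39h2* and 0.08 for *Tet3*. So the size of these ratios depends on the probe. The side of 0 does so for *Tet2* and, with the untested probes counted, for *Suv39h2* and *Tet3*. *Dnmt1* was the lowest, at -1.71 ± 0.07 (SD, n = 8), which is 3.28-fold below the reference, and was at -2.18 with median centring. *Ehmt2* (0.71), *Ehmt1* (0.52) and *Tet2* (0.13) were above 0 and *Tet3* (-0.21), *Suv39h1* (-0.45) and *Setdb1* (-0.71) below. With median centring *Ehmt2*, *Ehmt1* and *Tet2* were at -0.51, -0.00 and -0.41, and with the authors' log2 ratios *Tet2* was at -0.05. A ratio compares a gene with itself in the reference and gives no order of levels between genes.

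Genes that work with these enzymes were listed in 7 groups, of which 64 of 71 genes had a tested probe. None passed the adjusted threshold in limma's test, and the lowest adjusted p was 0.515. At an unadjusted p of 0.05 there were 3 (4.69%), against 8.77% of all probes, and the groups did not overlap at 2 (3.13%), against 5.06%. By the gene-wise F test 0 passed. The means of 31 were higher and of 33 lower in BaP mice, around a median log2 fold change of -0.01. Median centring raised the median of all tested probes, and the mean difference of each of the 7 lists rose as well.

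*Mbd4*, a DNA glycosylase that binds methylated CpG and removes thymine from mismatches there, was the gene without overlap on the higher side. Control mice had log2 ratios of -0.66, -0.73, -0.80 and -0.70 and BaP mice -0.64, -0.34, -0.36 and -0.55. BaP mouse 1 was only just above control mouse 1. The log2 fold change was 0.25 (SE 0.09, adjusted p = 0.515 from limma), with an exact permutation p of 0.0286. *Uhrf2*, a relative of the DNMT1 recruiter *Uhrf1*, was the one on the lower side, at the brightest of its 2 tested probes. Control mice had -0.49, -0.19, -0.41 and -0.34 and BaP mice -0.54, -0.59, -0.50 and -0.56, a narrow cluster under the control values. Its log2 fold change was -0.19 (SE 0.08, adjusted p = 0.564 from limma), with an exact permutation p of 0.0286. *Uhrf1* itself was at -0.08 (adjusted p = 0.876 from limma).

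By group, the H3K9 side comprised other methyltransferases (2 tested, 2 higher), partners and readers such as *Trim28* and the HP1 genes *Cbx3* and *Cbx5* (12 tested, not *Cbx1*, 6 higher and 6 lower, median 0.01) and demethylases (11 tested, 7 higher and 4 lower, median 0.05). The mean log2 ratio of the partners and readers was 0.09 to 0.12 in control and 0.15 to 0.17 in BaP mice, which is 0.05 apart on average. This was the single list of the 7 whose means did not overlap, and they did overlap with median centring (-0.72 to -0.38 and -0.46 to -0.04). With the authors' log2 ratios they did not, though only just (-0.112 to -0.0673 and -0.0670 to -0.0269). With median centring the means of the methyl donor cycle list were the ones without overlap. *Cdyl*, a reader of methylated H3K9, was at 0.32 (SE 0.12, adjusted p = 0.537 from limma) with overlapping groups. On the DNA side, other DNA methyltransferases and partners were mostly lower (8 tested, 1 higher and 7 lower, median -0.06), where 48.8% of all tested probes were higher. Proteins that bind methylated CpG numbered 10 tested (4 higher and 6 lower, median -0.02), partners of active demethylation 12 (5 and 7, median -0.05) and genes of the methyl donor cycle 9 (6 and 3, median 0.07). These counts describe means, since 0 of the genes passed the test.

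**Figure D4:**
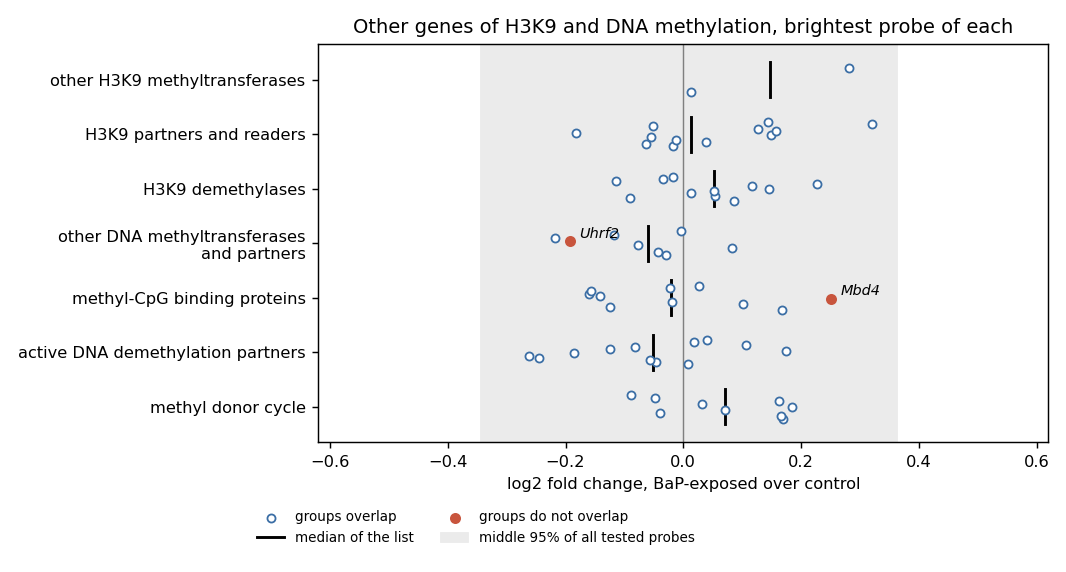
Log2 fold change of BaP over control mice (horizontal axis) for the brightest tested probe of each of 64 genes in 7 groups (vertical axis). Black bars are group medians, filled points are the 2 genes whose groups of mice do not overlap, and the gray band is the middle 95% of all tested probes, inside which all 64 lie.

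Markers of the cell types in the tissue were set beside these values. Of 8 lists, the mean log2 ratio per mouse separated the groups without overlap for 1, the erythroid list, at 3.81 to 4.01 in control and 2.89 to 3.20 in BaP mice (exact permutation test, 2-sided, p = 0.0286). *Hbb-bs* (-1.90) and *Alas2* (-1.05) of that list were among the 3 probes called on the whole array. Choroid plexus markers ranged from 2.37 to 3.99 in control and from 1.83 to 4.97 in BaP mice. Lists for neurons, oligodendrocytes, astrocytes, microglia and endothelium overlapped as well. The groups did not overlap at *Cldn5*, a tight junction gene of endothelium that was not called, with log2 ratios of 5.25 to 5.39 in control and 4.69 to 4.87 in BaP mice (log2 fold change -0.57, SE 0.08, adjusted p = 0.138 from limma), while *Slco1a4* of the same list was at 0.35 with overlapping groups. The part of cell makeup in the values of the enzymes was not tested. In bulk tissue, fewer cells of a type and less RNA per cell cannot be told apart.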

How the data were processed

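RNA from the hippocampus of 8 mice was measured on 2-color Agilent arrays. Deposited by the authors were spot intensities of both channels, with background levels and marks, made with Agilent Feature Extraction 11.0.1.1 per the file headers. That scanner output also holds a log10 ratio of Cy5 over Cy3, deposited by the authors and not tested here. The authors further deposited log2 ratios, which the methods describe as LOWESS-normalized (r = 0.998 to 0.999 with the values used here, across probes). The scanner's spot flags were used as deposited.

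From median intensities, the background was corrected with normexp (offset 50) in limma 3.58.1 under R 4.3.3, outlier spots were set to missing, ratios were normalized by loess and spots of a probe averaged. The filter on dim probes asked for a Cy5 signal well above background on 4 or more of 8 arrays. Probes were tested with lmFit and eBayes without covariates, with Benjamini-Hochberg adjustment. Exact permutation tests ran over all 70 assignments. A result was called at an adjusted p of 0.05 and 1.5-fold. Summaries used Python 3.11.15 with pandas 2.3.3. The fit was run on simulated data with changes larger than any of the members. That run does not show whether changes of the members' size would be called. Normalization sets the zero of each ratio, and offsets shrink the changes of dim probes.

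Probes were named through RefSeq accessions (27229 of 28685 with an accession) and a gene table of GRCm38.p6. All members are named with every probe. Genes of the 7 pathway lists are named where the groups do not overlap, up to 2 in each direction a list, and *Cdyl*, *Uhrf1*, *Trim28* and the HP1 genes in addition. Of the 8 marker lists, genes past the adjusted threshold and 1 in each direction without overlap are named, and *Mcm6* and *Slco1a4* after their values were seen. The members and lists were chosen with earlier results of these data known. Nothing in the labels says more of the replicates than that they are biological. As each mouse had its own array, the p-values rest on a spread that joins that of mice and of measurement. The limma test also draws on the variance of all tested probes. The RNA-seq and RT-PCR data were not analysed here.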

Additional observations from a re-analysis of the deposited data

Results flagged for a closer look

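In 1 of 58 groups of 4 mice examined, where chance gives 2.9, a mouse lay far from the others. The mean log2 ratio of the methyl donor cycle genes was -0.399 in control mouse 2, while those of control mice 1, 3 and 4 lay between -0.484 and -0.471, a gap of 0.850 of their range. The means were over unlike genes, since *Gnmt* had no value in control mouse 1. Over the 8 genes with a value on every array, a comparison chosen with the values in view, control mice 1 to 4 were at -0.484, -0.445, -0.582 and -0.520, and the largest gap was 0.456 of the range, so control mouse 2 did not stand apart. Of the enzymes themselves, 0 stood out in this way.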

How the results depend on the processing

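Over all tested probes 3 were called, and 1 to 3 with each mouse left out in turn (1 without control replicate 1, 3 or 4 or BaP replicate 2). The count was 6 with the Cy5 channel alone or a robust fit with trend, 5 without a filter on dim probes and 1 with probes well above background in both channels. It was 0 with plain background subtraction, an offset of 0, a gene-wise F test, within slide row 1 or 2, with the 4 mice of matching labels or with groups from the source names, and the cause was not tested. Of the members and the listed pathway genes 0 were called in limma's test under all of these, leaving 1 mouse out included, and the lowest adjusted p of a member was 0.218, with median centring. Of the members, 6 were above the reference, and 3 with median centring, which sets another zero. The erythroid list was the single one of 8 without overlap also with median centring and with the authors' log2 ratios. Of 180 fold changes of single members under the 18 alternatives that can change them, 18 moved by over 1 SD, 14 of these with median centring or the source names.

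Same-numbered mice did not stand out as pairs. The correlation of their deviations from the group means was -0.354 to 0.031, and no control mouse matched its own number best. With so few mice this cannot exclude a pairing. With a replicate block 3 probes and 0 members were called. Dim probes, such as those of *Tet3*, are limited by signal over background.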
